A study of Mus musculus with 2 samples.

Results

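Itgax and 7 other genes were followed through 2 single-cell libraries of immune cells from the inflamed mouse central nervous system: Itgad, 4931431B13Rik, Cox6a2, Plcb1, Plcb4, Hdhd5 and Slc25a18. They are 8 of the 32285 genes measured. They were chosen with results of these libraries known, because several had higher levels in the library from mice with a CD11c-driven Cre, so the levels and ratios between the libraries are a description and carry no test. The description asks in which cell types each gene was higher in that library, and whether the difference followed the cells that hold Itgax RNA.

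A library came from Stat4fl/flCD11cCre mice and another from WT mice, both on the C57BL/6 strain. Both groups had experimental autoimmune encephalomyelitis (EAE), a model of multiple sclerosis brought on by immunization with a myelin peptide (MOG) in complete Freund's adjuvant together with pertussis toxin, and were killed on day 15. Cells of each group's mice were pooled, mononuclear cells of the central nervous system were enriched on Percoll, and MHC class II and CD11c double-positive cells were sorted and run on a 10x 3′ droplet kit. Stat4 encodes a transcription factor of IL-12 and IL-23 signalling. In Stat4fl/flCD11cCre mice its floxed alleles are cut by Cre made from a CD11c (Itgax) promoter. The other mice are labelled WT, and that label does not mention the transgene or floxed alleles. The floxed exons, the Cre line, its construct and insertion site, and the age and number of the mice were not stated in the labels or the design text. With 1 library per genotype, the floxed allele, the transgene, the pool and the library cannot be told apart. Cre itself was not analysed here.

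Itgax encodes CD11c and Itgad encodes CD11d, alpha chains that pair with the beta chain CD18 (Itgb2) to form leukocyte adhesion receptors, the beta-2 integrins. CD11c is the customary surface mark of dendritic cells (DC) and is also found on some monocytes, activated microglia, natural killer (NK) cells and T cells. Cox6a2 encodes a subunit of cytochrome c oxidase known from heart and skeletal muscle and from plasmacytoid DC. Plcb1 and Plcb4 encode phospholipases C beta, which cleave a membrane lipid into second messengers after receptors coupled to Gq proteins are engaged. Slc25a18 encodes a mitochondrial glutamate carrier, Hdhd5 a hydrolase-domain protein, and 4931431B13Rik a non-coding RNA.

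The 8 genes lie at 3 places in the mouse genome, in mm10 coordinates of the GENCODE release M21 annotation. Itgax (ENSMUSG00000030789) spans chr7:128129547-128150657 on the plus strand, and Itgad (ENSMUSG00000070369) follows at chr7:128154376-128223816 on the same strand. 4931431B13Rik (ENSMUSG00000108354) at chr7:128192050-128203328 and Cox6a2 (ENSMUSG00000030785) at chr7:128205435-128206387 both lie on the minus strand within the span of Itgad. Whether strand was used in counting is not stated, so without it reads of Itgad could not be told apart from those of either antisense gene where they overlap. Itgax and Itgad are paralogs, and reads that match both are uncertain. Plcb1 (ENSMUSG00000051177, chr2:134786067-135475258) and Plcb4 (ENSMUSG00000039943, chr2:135659011-136014593) are neighbours on the plus strand of chromosome 2. Hdhd5 (ENSMUSG00000058979, chr6:120509494-120531319, minus strand) and Slc25a18 (ENSMUSG00000004902, chr6:120773578-120794336, plus strand) lie near each other on chromosome 6.

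The start regions of 4 members are shown: Itgax because its promoter drives Cre in these mice, and Slc25a18, Plcb1 and Plcb4 because their levels differed between the libraries. Each runs from 250 bases before to 50 after the annotated start and comes from RefSeq (GRCm38.p6, the same assembly as mm10). Capitals mark matches on either strand to a PU.1 core word (GAGGAA), a RUNX core word (TGTGGT) and an Sp1 core word (GGGCGG), 3 factors described at the CD11c promoter. The sequence table held no entry for Itgad, 4931431B13Rik or Cox6a2.
Itgax, chr7:128129300-128129599, plus strand: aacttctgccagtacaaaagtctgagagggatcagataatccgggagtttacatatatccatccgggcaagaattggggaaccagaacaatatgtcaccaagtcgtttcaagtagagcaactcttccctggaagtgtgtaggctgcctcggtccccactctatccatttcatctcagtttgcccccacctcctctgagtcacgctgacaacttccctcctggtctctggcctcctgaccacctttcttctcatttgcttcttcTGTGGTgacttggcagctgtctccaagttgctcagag
Slc25a18, chr6:120773518-120773817, plus strand: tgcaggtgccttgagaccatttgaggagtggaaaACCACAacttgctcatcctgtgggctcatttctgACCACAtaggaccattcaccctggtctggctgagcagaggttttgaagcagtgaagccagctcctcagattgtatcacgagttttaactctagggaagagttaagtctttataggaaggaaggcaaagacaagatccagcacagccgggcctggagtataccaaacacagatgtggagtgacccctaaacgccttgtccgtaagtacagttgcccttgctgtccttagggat
Plcb1, chr2:134785914-134786213, plus strand: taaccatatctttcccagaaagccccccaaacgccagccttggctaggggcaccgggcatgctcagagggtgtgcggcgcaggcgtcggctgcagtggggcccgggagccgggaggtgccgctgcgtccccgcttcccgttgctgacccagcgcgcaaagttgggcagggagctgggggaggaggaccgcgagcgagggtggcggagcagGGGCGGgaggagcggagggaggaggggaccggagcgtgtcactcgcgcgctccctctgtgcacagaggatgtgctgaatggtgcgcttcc
Plcb4, first start, chr2:135659297-135659596, plus strand: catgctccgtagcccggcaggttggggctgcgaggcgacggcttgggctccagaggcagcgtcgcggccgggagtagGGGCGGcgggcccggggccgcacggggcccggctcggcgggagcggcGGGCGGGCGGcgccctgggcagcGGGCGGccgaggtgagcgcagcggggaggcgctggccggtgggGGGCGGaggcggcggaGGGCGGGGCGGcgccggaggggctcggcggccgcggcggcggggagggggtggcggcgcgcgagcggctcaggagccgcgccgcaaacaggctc
Plcb4, second start, chr2:135764588-135764887, plus strand: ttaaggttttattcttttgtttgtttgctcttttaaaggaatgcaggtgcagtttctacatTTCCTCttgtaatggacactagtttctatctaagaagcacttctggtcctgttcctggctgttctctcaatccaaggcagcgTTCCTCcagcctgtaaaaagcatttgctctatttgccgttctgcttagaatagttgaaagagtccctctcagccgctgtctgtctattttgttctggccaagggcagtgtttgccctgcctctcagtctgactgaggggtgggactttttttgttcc
The Itgax window held 1 TGTGGT, 14 bases after the start, and neither of the other words. Slc25a18 held 2 copies of TGTGGT, both read on the minus strand. The first Plcb4 start held 7 copies of GGGCGG in 84.0% G and C, some overlapping, while the second held 2 copies of GAGGAA on the minus strand in 44.3% G and C. Plcb1 held 1 GGGCGG. Over the 32851 windows of the same length in the table, GAGGAA was in 28.3%, TGTGGT in 16.8% and GGGCGG in 35.7%, so such matches are common and a match is not a binding site.

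After barcodes with 500 or more genes, 1000 or more gene UMIs (unique molecular identifiers, which count captured RNA molecules) and under 10% mitochondrial UMIs were kept, 12305 of 12534 barcodes remained in the Stat4fl/flCD11cCre library and 13298 of 13820 in the WT library. They had a median of 6878 and 6440.5 UMIs. The libraries shared 43 barcodes. Cells were assigned to a type, here called a gate, when they held 3 or more of the markers of 1 list and at most 1 of every other list. None of the 8 genes served as a marker. That left 58.5% of Stat4fl/flCD11cCre cells and 56.4% of WT cells in no gate. Microglia (2185 and 1568 cells), monocytes/macrophages (1081 and 1591), T cells (828 and 1768), neutrophils (461 and 204), NK cells (174 and 248), conventional and mature DC pooled (124 and 139), nonclassical monocytes (104 and 55) and choroid plexus cells (73 and 118) had 50 or more cells in each library. The cDC2, a conventional DC subset within the pool, had 82 and 69. The other conventional subset, cDC1 (39 and 68), plasmacytoid DC (35 and 40) and B cells (37 and 59) had fewer than 50 in a library, and their values rest on few cells. The sort was for MHC class II and CD11c, yet gates of cells that classically lack one or both marks held many cells.

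Levels are in CPM, the UMIs of a gene per 1000000 gene UMIs of the gate. Ratios are log2 of Stat4fl/flCD11cCre over WT, so a positive value is higher in Stat4fl/flCD11cCre cells, and 1 is a doubling. Brackets give 95% intervals, which cover counting error only and not the spread between mice or libraries. In a pooled sample of sorted cells, a higher gate level can come from more cells with the RNA or from more RNA per cell, so shares of cells are given beside several levels. Stat4 (ENSMUSG00000062939), the floxed gene, had 380 CPM in NK cells of Stat4fl/flCD11cCre mice and 391 CPM in those of WT mice. In T cells its level was 241 CPM in Stat4fl/flCD11cCre and 250 CPM in WT, and in the pooled DC it was 62.0 and 48.0 CPM, a ratio of 0.37 (-0.13 to 0.87). The B cell gate, with few cells, had 38.4 CPM in Stat4fl/flCD11cCre and 180 CPM in WT, a ratio of -2.23 (-3.36 to -1.20), and all cells had 40.9 and 58.8 CPM, a ratio of -0.52 (-0.58 to -0.47). The T cell gate held 6.73% of Stat4fl/flCD11cCre cells and 13.3% of WT cells. The part of this mix in the ratio over all cells was not tested. Reads at the 3′ end can lie outside a deleted exon, so these levels check neither the label nor the deletion.

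Itgax was higher in Stat4fl/flCD11cCre cells in nonclassical monocytes and in the pooled DC, lower in microglia, and within counting error in NK cells, cDC1 and cDC2. Nonclassical monocytes, which patrol the vessel wall, had 207 Itgax UMIs in Stat4fl/flCD11cCre and 26 in WT, or 401 CPM (348 to 460) and 112 CPM (73.0 to 164), a ratio of 1.84 (1.25 to 2.49). An Itgax UMI was found in 71.2% of those cells in Stat4fl/flCD11cCre and 34.5% in WT, and in 51.0% and 22.4% after each cell was thinned to 2500 UMIs. Both the level and the share were therefore higher, at a median depth of 4627.5 UMIs in Stat4fl/flCD11cCre and 3707 in WT.

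In the pooled DC, Itgax had 123 UMIs in Stat4fl/flCD11cCre and 66 in WT, which is 90.8 CPM (75.5 to 108) and 53.7 CPM (41.5 to 68.3), a ratio of 0.76 (0.31 to 1.21), or 1.34 thinned. Within the pool the ratio was 0.51 (-0.04 to 1.08) in cDC2, at 112 and 78.9 CPM, and 0.76 (-0.06 to 1.60) in cDC1, at 58.0 and 34.2 CPM. Neither interval of a single subset left out 0. The pool held 82 cDC2 and 39 cDC1 in Stat4fl/flCD11cCre, against 69 and 68 in WT, with cDC2 markers at 1559 and 971 CPM and a median CD11b tag of 296.5 and 151 counts per cell. The part of this mix in the pooled ratios was not tested. Thinned, 23.0% of pooled DC in Stat4fl/flCD11cCre and 9.56% in WT held an Itgax UMI.

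Microglia, the resident macrophages of the brain, showed the opposite order. Their Itgax level was 7.46 CPM (5.87 to 9.35) in Stat4fl/flCD11cCre and 27.4 CPM (23.5 to 31.7) in WT, a ratio of -1.88 (-2.28 to -1.48). With a gate that asks for at least double the markers of any other list, added after the data were seen, the microglia gate held 5286 and 3492 cells and the ratio was -0.90. In the microglia gate the microglia markers summed to 10700 CPM in Stat4fl/flCD11cCre and 6919 CPM in WT, those of monocytes/macrophages to 47.5 and 103 CPM, and Fcrls, a microglia marker, was found in 92.8% and 68.0% of cells. Their part in the microglia ratios of Itgax, Itgad and Cox6a2 was not tested. Monocytes/macrophages had 23.4 CPM in Stat4fl/flCD11cCre and 29.6 CPM in WT, a ratio of -0.34 (-0.57 to -0.10). NK cells had 75.9 CPM in Stat4fl/flCD11cCre and 78.8 CPM in WT, a ratio of -0.05 (-0.52 to 0.41), and T cells had 9.03 and 11.8 CPM, a ratio of -0.39 (-0.90 to 0.10). Neutrophils held 33 Itgax UMIs in Stat4fl/flCD11cCre and 6 in WT, a ratio of 1.03 (-0.25 to 2.57) that its interval does not separate from 0. Over all cells Itgax stood at 27.5 CPM in Stat4fl/flCD11cCre and 31.5 CPM in WT, a ratio of -0.20 (-0.26 to -0.13).

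Ordered by level in Stat4fl/flCD11cCre, nonclassical monocytes stood first, with an interval clear of cDC2 (112 CPM). The cDC2, NK cells, plasmacytoid DC (62.0 CPM) and cDC1 followed, each overlapping the next. Monocytes/macrophages and neutrophils came after them and overlapped each other, as did T cells and microglia. In WT, nonclassical monocytes, cDC2, NK cells and plasmacytoid DC (78.1 CPM) all overlapped. Cells that classically lack CD11c were read as a background, though all cells came from a sort for CD11c. B cells held 0 Itgax UMIs in both libraries, with upper bounds of 12.9 CPM in Stat4fl/flCD11cCre and 20.7 CPM in WT. Both bounds lie above the level of Stat4fl/flCD11cCre microglia, so this small gate sets no close limit. Choroid plexus cells held 0 Itgax UMIs in Stat4fl/flCD11cCre and 1 in WT, in 0.847% of the WT cells. Those choroid plexus cells had a median of 8281 UMIs in Stat4fl/flCD11cCre and 7016 in WT, and the upper bound of the Itgax level in them was 5.95 and 6.64 CPM, close to the 7.46 CPM of Stat4fl/flCD11cCre microglia.

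**Figure D1:**
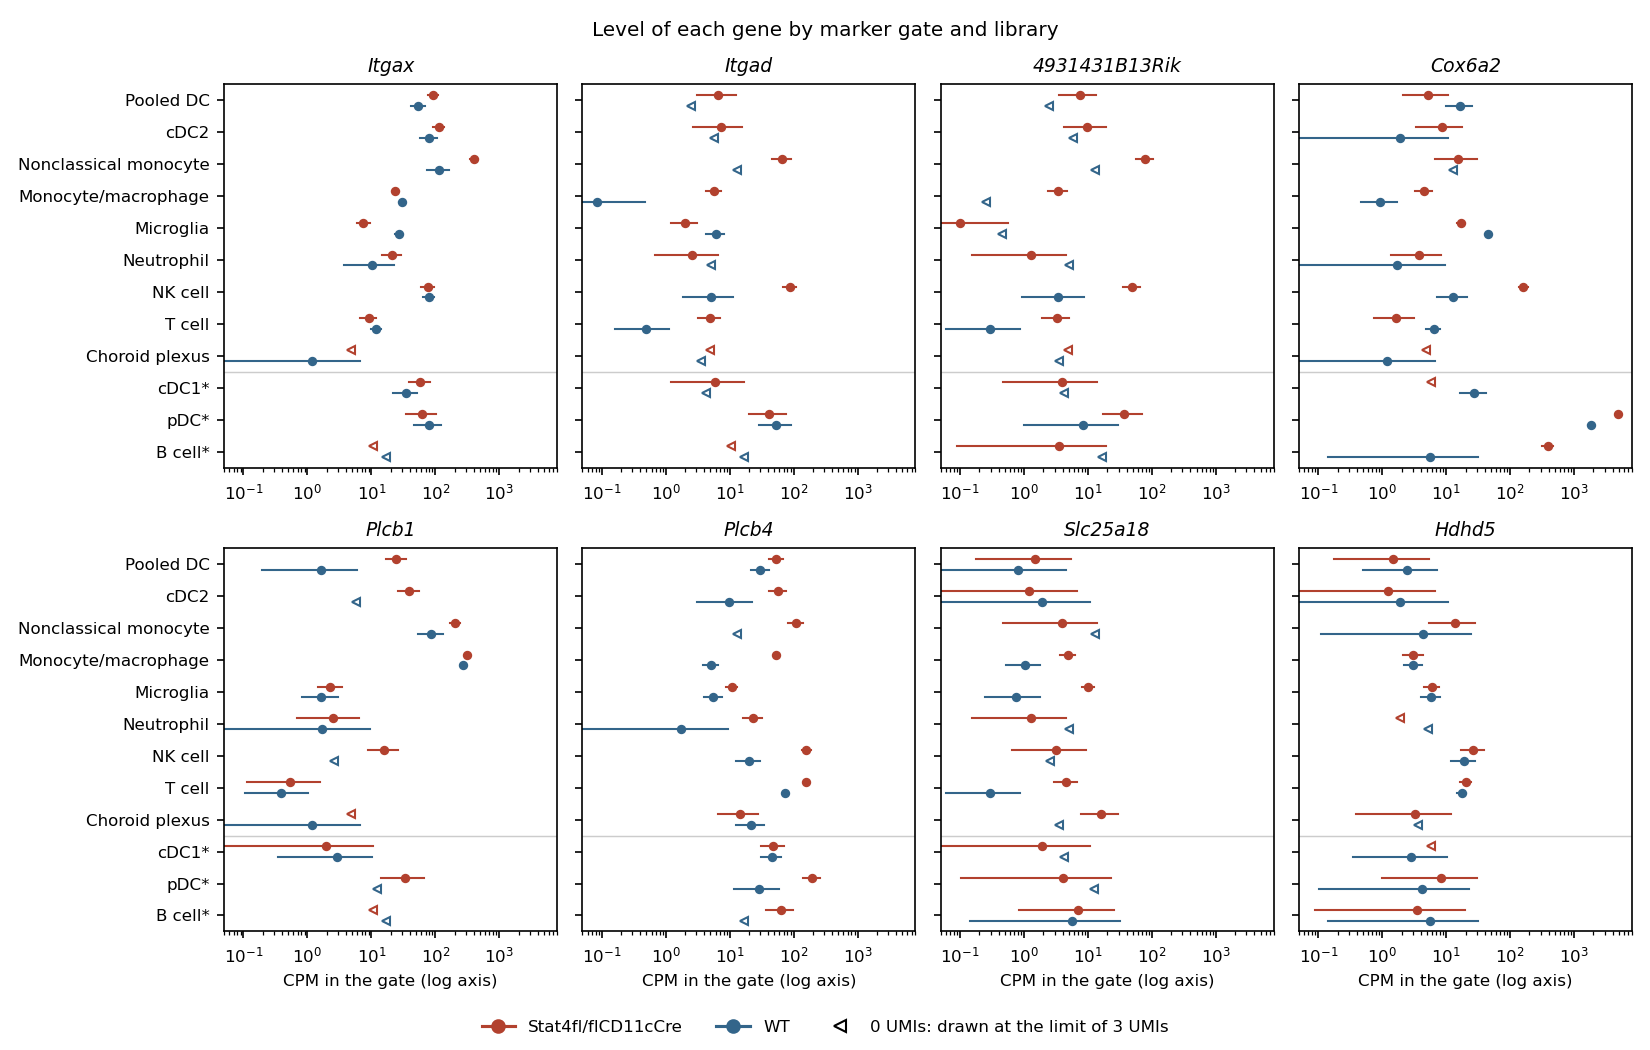
Level of each of the 8 genes in each cell type, in CPM on a log axis, with Stat4fl/flCD11cCre (red) above WT (blue) in each row, bars for the 95% counting interval, and open triangles at the limit of 3 UMIs where a library held 0. Gates marked with an asterisk have fewer than 50 cells in a library. Itgax in nonclassical monocytes (401 CPM in Stat4fl/flCD11cCre, 112 CPM in WT) and Itgad in NK cells (86.4 and 5.14 CPM) stand apart between libraries, while Hdhd5 in T cells (20.2 and 17.3 CPM) does not.

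The plot of levels by cell type shows that the separation between libraries differed from gene to gene and from gate to gate. Itgad, the gene directly downstream of Itgax, was higher in Stat4fl/flCD11cCre in NK cells, T cells and both monocyte gates, and lower in microglia. In NK cells it had 82 UMIs in Stat4fl/flCD11cCre and 6 in WT, or 86.4 CPM (68.7 to 107) and 5.14 CPM (1.89 to 11.2), a ratio of 4.07 (2.89 to 5.56). An Itgad UMI was present in 31.0% of NK cells in Stat4fl/flCD11cCre and 2.42% in WT, and in 16.0% and 1.90% at 2500 UMIs per cell. No NK cell of the Stat4fl/flCD11cCre library held more than 6 of these UMIs, so the difference was spread over cells.

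Itgad in monocytes/macrophages had 61 UMIs in 52 cells of Stat4fl/flCD11cCre and 1 UMI in WT, at 5.65 CPM (4.32 to 7.26) and 0.085 CPM, a ratio of 6.05 (3.52 to 11.38). T cells had 27 UMIs in Stat4fl/flCD11cCre and 5 in WT, at 4.87 and 0.489 CPM, a ratio of 3.32 (1.92 to 5.05), or 1.81 under the gate with double markers. Nonclassical monocytes had 34 UMIs in Stat4fl/flCD11cCre (65.9 CPM, 45.6 to 92.1) and 0 in WT, which is at least 5.11-fold higher against a floor of 3 counts in the WT library. The pooled DC likewise had 9 and 0, at least 2.72-fold higher, but 1 and 0 once thinned, where no difference was detectable.

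In plasmacytoid DC the direction for Itgad changed with the gate, and in microglia Itgad was lower. Plasmacytoid DC had 10 UMIs in Stat4fl/flCD11cCre and 13 in WT, at 41.3 and 53.4 CPM, a ratio of -0.37 (-1.72 to 0.93). The gate with double markers gave 63 and 26 UMIs there, a ratio of 0.74 (0.06 to 1.46). In microglia the level was 1.99 CPM in Stat4fl/flCD11cCre and 6.02 CPM in WT, a ratio of -1.60 (-2.45 to -0.79). There 1 WT cell held 15 of the 40 WT UMIs, and the ratio was -1.15 without the cell with the most Itgad UMIs in each library and -0.75 under the gate with double markers. Over all cells Itgad stood at 6.92 CPM in Stat4fl/flCD11cCre and 2.11 CPM in WT, a ratio of 1.71 (1.51 to 1.92).

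4931431B13Rik, the antisense non-coding gene within Itgad, had at most 4 UMIs in any WT gate. NK cells had 46 UMIs in Stat4fl/flCD11cCre and 4 in WT, at 48.5 and 3.43 CPM, a ratio of 3.82 (2.37 to 5.76). T cells had 18 and 3, a ratio of 3.47 (1.69 to 5.87). Nonclassical monocytes had 40 UMIs in Stat4fl/flCD11cCre (77.5 CPM) and 0 in WT, at least 6.01-fold higher. Monocytes/macrophages had 37 (3.43 CPM) and 0, at least 13.4-fold higher, and the pooled DC had 10 and 0, at least 3.02-fold higher, but 3 and 0 once thinned, where no difference was detectable. Microglia held 1 UMI in Stat4fl/flCD11cCre and 0 in WT, so the gene was not detectable there in either library beyond a single molecule. Over all cells its level was 3.91 CPM in Stat4fl/flCD11cCre and 0.254 CPM in WT, a ratio of 3.95 (3.42 to 4.52), with 468 and 31 UMIs.

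Cox6a2 was highest in plasmacytoid DC in both libraries and differed between them in both directions elsewhere. Plasmacytoid DC had 1187 Cox6a2 UMIs in 35 cells of Stat4fl/flCD11cCre and 444 in 40 cells of WT, or 4904 CPM (4629 to 5191) and 1825 CPM (1659 to 2003), a ratio of 1.43 (1.27 to 1.59). It was detected in 100% of those cells in Stat4fl/flCD11cCre and 82.5% in WT. NK cells had 152 UMIs in Stat4fl/flCD11cCre and 15 in WT, at 160 CPM (136 to 188) and 12.8 CPM (7.19 to 21.2), a ratio of 3.64 (2.87 to 4.51).

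The Cox6a2 UMIs of NK cells lay in 26 of 174 cells in Stat4fl/flCD11cCre and 7 of 248 in WT, with up to 24 in 1 cell. Summed markers of plasmacytoid DC, the type with most Cox6a2 RNA, were at 25.3 CPM in NK cells of Stat4fl/flCD11cCre and 34.3 CPM in those of WT. With every NK cell that held any such marker left out, the ratio was 2.99. B cells, with few cells, had 111 Cox6a2 UMIs in Stat4fl/flCD11cCre and 1 in WT, at 387 and 5.62 CPM, a ratio of 6.11 (3.60 to 11.42). They were found in 40.5% of those B cells in Stat4fl/flCD11cCre and 1.69% in WT, beside plasmacytoid DC markers at 59.3 and 56.2 CPM, and the ratio was 5.84 without the cells that held such a marker. The B cells of the 2 libraries also differed otherwise. Ms4a1, a B cell marker, was found in 48.6% of them in Stat4fl/flCD11cCre and 81.4% in WT, and ribosomal genes held 23.4% and 32.7% of UMIs. The part of this in the ratios of the B cell gate, here and elsewhere, was not tested.

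Monocytes/macrophages had 48 Cox6a2 UMIs in Stat4fl/flCD11cCre and 11 in WT, at 4.44 and 0.937 CPM, a ratio of 2.25 (1.28 to 3.34). Under a gate that asks for double the markers of any other list, added after the data were seen, that ratio was 0.87. Microglia ran the other way, at 17.1 CPM in Stat4fl/flCD11cCre and 44.8 CPM in WT, a ratio of -1.39 (-1.67 to -1.11). In T cells Cox6a2 had 9 UMIs in Stat4fl/flCD11cCre and 65 in WT, a ratio of -1.97, but 39 of the WT UMIs came from 1 cell and the ratio without the top cell of each library was -1.23, and -0.10 under the gate with double markers. The pooled DC held 7 in Stat4fl/flCD11cCre and 20 in WT, a ratio of -1.65, but 11 of the WT UMIs came from 1 cell, and the ratio without the top cell of each library was -0.99 (-2.92 to 0.74). Over all cells the level was 81.0 CPM in Stat4fl/flCD11cCre and 42.2 CPM in WT, a ratio of 0.94 (0.89 to 0.99).

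Plcb1 was mainly a monocyte and macrophage gene in both libraries. Its level was higher in Stat4fl/flCD11cCre in several gates, among them cDC2, NK cells and nonclassical monocytes. Monocytes/macrophages had 316 CPM (305 to 326) in Stat4fl/flCD11cCre and 269 CPM (260 to 279) in WT, a ratio of 0.23 (0.16 to 0.30). Nonclassical monocytes had 204 and 86.0 CPM, with 105 and 20 UMIs, a ratio of 1.24 (0.54 to 2.01), or 2.08 without cells holding a plasmacytoid DC marker. The pooled DC had 33 UMIs in Stat4fl/flCD11cCre and 2 in WT, at 24.4 CPM (16.8 to 34.2) and 1.63 CPM (0.197 to 5.88), a ratio of 3.90 (1.94 to 7.01).

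Of the 33 Plcb1 UMIs in Stat4fl/flCD11cCre pooled DC, 32 lay in cDC2, against 0 in WT cDC2, at least 6.69-fold higher. They came from 15 cells of the pool, with 9 in 1 cell. NK cells had 15 UMIs in Stat4fl/flCD11cCre and 0 in WT, at least 6.15-fold higher, and plasmacytoid DC had 8 and 0, at least 2.68-fold higher. Microglia stood at 2.29 CPM in Stat4fl/flCD11cCre and 1.65 CPM in WT, and T cells held 3 and 4 UMIs. With double markers these gates turned lower in Stat4fl/flCD11cCre: microglia had 285 UMIs in Stat4fl/flCD11cCre and 237 in WT, a ratio of -0.43 (-0.68 to -0.17), and T cells had 16 and 78, a ratio of -1.41 (-2.29 to -0.63). At 2500 UMIs per cell plasmacytoid DC held 3 and 0, so the difference there was not detectable at that depth. Summed markers of monocytes/macrophages, the gate with the most Plcb1 RNA, were at 617 CPM in cDC2 of Stat4fl/flCD11cCre and 732 CPM in those of WT, and at 155 and 248 CPM in NK cells.

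Plcb4, next to Plcb1 on chromosome 2, was higher in Stat4fl/flCD11cCre in most gates. Monocytes/macrophages had 578 UMIs in Stat4fl/flCD11cCre and 59 in WT, or 53.5 CPM (49.2 to 58.1) and 5.03 CPM (3.83 to 6.48), a ratio of 3.41 (3.02 to 3.82). NK cells had 158 CPM (134 to 185) in Stat4fl/flCD11cCre and 19.7 CPM (12.5 to 29.6) in WT, a ratio of 3.0 (2.37 to 3.71). In NK cells a Plcb4 UMI was found in 47.1% of Stat4fl/flCD11cCre and 8.07% of WT cells, and thinned in 30.1% and 6.16%.

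T cells, which had Plcb4 RNA in both libraries, stood at 159 CPM (148 to 169) in Stat4fl/flCD11cCre and 72.1 CPM (67.0 to 77.5) in WT, a ratio of 1.14 (0.99 to 1.28). A Plcb4 UMI was found in 26.9% of thinned T cells in Stat4fl/flCD11cCre and 12.1% in WT. Nonclassical monocytes had 56 UMIs in Stat4fl/flCD11cCre (109 CPM) and 0 in WT, at least 8.42-fold higher. The cDC2 had 47 UMIs in Stat4fl/flCD11cCre and 5 in WT, a ratio of 2.56 (1.24 to 4.25) that thinning left at 0.34 on 3 and 2 UMIs, while cDC1 had 48.3 and 45.6 CPM, a ratio of 0.08.

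Pooled, the DC stood at 53.1 CPM of Plcb4 in Stat4fl/flCD11cCre and 30.1 CPM in WT, a ratio of 0.82 (0.23 to 1.43). At 2500 UMIs per cell that ratio turned to -0.69, on 5 and 9 UMIs, so no direction is given for Plcb4 in the pool. Neutrophils had 36 UMIs in Stat4fl/flCD11cCre and 1 in WT, a ratio of 3.74 (1.17 to 9.08), and plasmacytoid DC had 46 and 7, a ratio of 2.72. B cells had 18 and 0, at least 3.73-fold higher. Microglia had 10.7 and 5.57 CPM, a ratio of 0.95, and choroid plexus cells had 14.5 CPM in Stat4fl/flCD11cCre and 21.5 CPM in WT, a ratio of -0.56.

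Slc25a18 was higher in Stat4fl/flCD11cCre in microglia, T cells and monocytes/macrophages. Microglia had 101 UMIs in 93 cells of Stat4fl/flCD11cCre and 5 in WT, or 10.0 CPM (8.19 to 12.2) and 0.752 CPM (0.244 to 1.76), a ratio of 3.74 (2.47 to 5.39). T cells had 25 and 3 UMIs, a ratio of 3.94 (2.23 to 6.31), and each of the 25 lay in a cell of its own. Monocytes/macrophages had 52 and 12, a ratio of 2.24 (1.31 to 3.28). Choroid plexus cells, which are not leukocytes, had 10 in Stat4fl/flCD11cCre (16.1 CPM) and 0 in WT, at least 4.51-fold higher, but 3 and 0 once thinned, where no difference was detectable. Over all cells the level was 7.06 CPM in Stat4fl/flCD11cCre and 0.663 CPM in WT, a ratio of 3.41 (3.08 to 3.76), with 846 and 81 UMIs.

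Hdhd5, which lies near Slc25a18, had nearly equal levels in the 2 libraries. Over all cells it stood at 6.22 CPM in Stat4fl/flCD11cCre and 6.17 CPM in WT, a ratio of 0.01 (-0.14 to 0.16). T cells had 20.2 and 17.3 CPM, a ratio of 0.22, and NK cells had 26.3 and 18.8 CPM, a ratio of 0.48 (-0.40 to 1.38). In microglia the ratio was 0.06 and in monocytes/macrophages it was -0.005. The intervals leave room for a difference below a doubling over all cells, and for a larger one in NK cells.

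**Figure D2:**
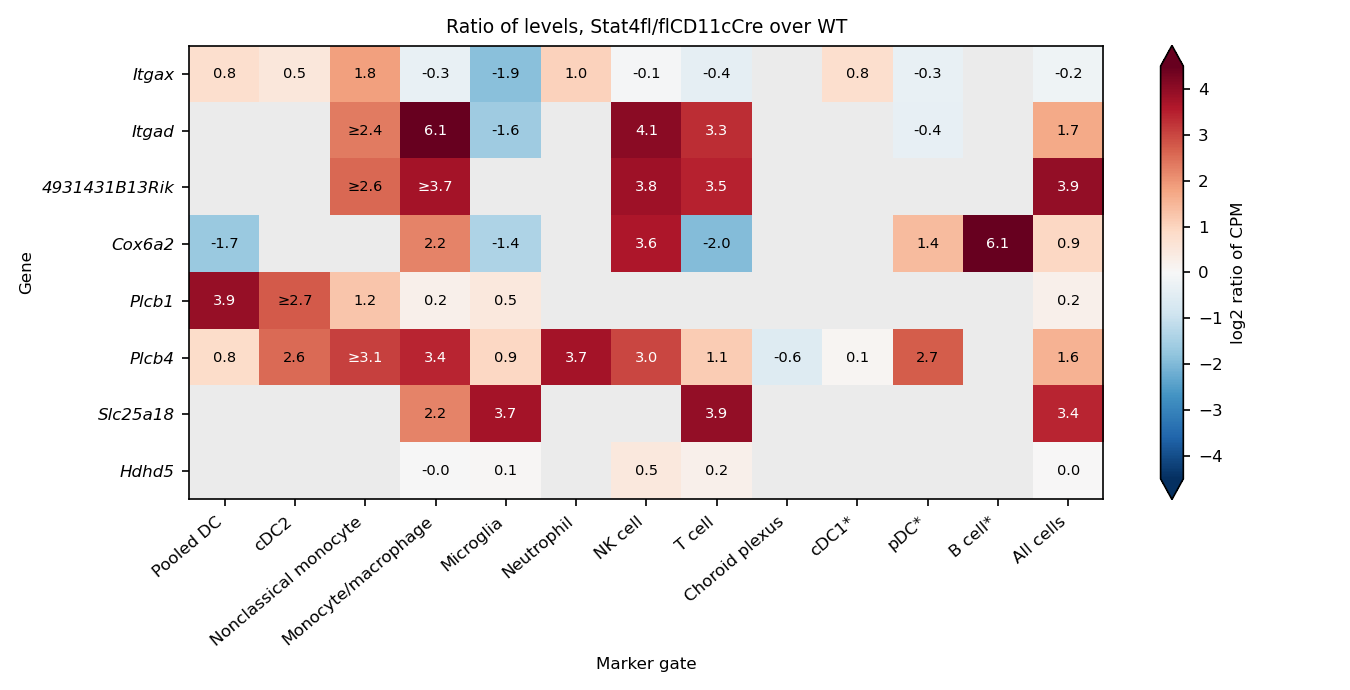
Map of the log2 ratio of Stat4fl/flCD11cCre over WT for each gene (rows) in each cell type and in all cells (columns), red where higher and blue where lower in Stat4fl/flCD11cCre. Grey fields had under 20 UMIs over both libraries, or no ratio, values with ≥ are lower bounds against a WT library at 0 UMIs, and gates marked with an asterisk have fewer than 50 cells in a library. Plcb4 is red in monocytes/macrophages (3.41) and NK cells (3.0), Itgax is red in nonclassical monocytes (1.84) and blue in microglia (-1.88), and the Hdhd5 row is pale.

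Read across the map of ratios, the members did not move as a block. A gene was counted as higher when it had 20 or more UMIs over both libraries and a ratio of 2-fold or more. The members reached 20 UMIs largely through the library in which they were high, and they were picked from this contrast, so the counts are given beside the share of all genes past the same limits and nothing is read from them. In nonclassical monocytes 5 of the 5 members with 20 UMIs were higher in Stat4fl/flCD11cCre (4.53% of 4944 genes), namely Itgax, Itgad, 4931431B13Rik, Plcb1 and Plcb4. In monocytes/macrophages 5 of 8 were higher (1.08% of 11784 genes), namely Itgad, 4931431B13Rik, Cox6a2, Plcb4 and Slc25a18. In NK cells 4 of 6 were higher (1.74% of 7826 genes), namely Itgad, 4931431B13Rik, Cox6a2 and Plcb4. In these 3 gates 0 members were lower, beside 2.97% of genes in nonclassical monocytes, 2.17% in monocytes/macrophages and 2.45% in NK cells.

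T cells had 4 of 7 members higher (1.21% of 11667 genes): Itgad, 4931431B13Rik, Plcb4 and Slc25a18. Cox6a2 was lower there (2.1% of genes were lower). The pooled DC had 1 of 4 higher, Plcb1 (2.58% of 7817 genes), and 1 lower, Cox6a2 (2.09%). In cDC2 alone 2 of 3 were higher, Plcb1 and Plcb4 (3.27% of 6061 genes). Microglia had 1 of 7 higher, Slc25a18 (2.39% of 12574 genes), and 3 lower, Itgax, Itgad and Cox6a2 (5.82%). Neutrophils had 2 of 2 higher, Itgax and Plcb4 (2.76% of 5697 genes), and choroid plexus cells 0 of 1 (1.9% of 4998 genes). In cDC2, neutrophils and choroid plexus cells 0 were lower (3.53%, 5.7% and 4.1% of genes).

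Among gates with few cells, plasmacytoid DC had 2 of 4 higher, Cox6a2 and Plcb4 (4.83% of 3766 genes), cDC1 had 0 of 2 (3.13% of 5626 genes) and B cells had 1 of 1, Cox6a2 (22.0% of 3374 genes). In these 3 gates 0 were lower (3.69%, 3.23% and 12.5% of genes). The median ratio of all genes in the B cell gate was itself 0.12. Over all cells, gated or not, 4 of 8 were higher (3.22% of 18613 genes), namely Itgad, 4931431B13Rik, Plcb4 and Slc25a18, and 0 were lower (3.51%).

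The gates were then split into cells with and without an Itgax UMI, here called with and without Itgax RNA. A cell in which 0 Itgax UMIs were found may still hold Itgax RNA, since at the NK cell level of 75.9 CPM and a median of 5010.5 UMIs many cells yield none. The split therefore sets cells richer in Itgax RNA against a mixed rest. Itgad in NK cells with Itgax RNA had 143 CPM in Stat4fl/flCD11cCre and 8.71 CPM in WT, a ratio of 4.04 (2.39 to 6.38), and in NK cells without it 62.7 and 3.64 CPM, a ratio of 4.11 (2.46 to 6.44). Cox6a2 in NK cells had a ratio of 3.64 on both sides of the split, at 290 and 23.2 CPM with Itgax RNA and 106 and 8.5 CPM without it. For Plcb4 in NK cells the ratio was 3.57 with and 2.80 without Itgax RNA.

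In monocytes/macrophages Plcb4 had 117 CPM in Stat4fl/flCD11cCre and 8.86 CPM in WT in cells with Itgax RNA, a ratio of 3.72, and 41.0 and 4.22 CPM in cells without it, a ratio of 3.28. Cox6a2 there had ratios of 2.25 and 2.28. Itgad in monocytes/macrophages without Itgax RNA had 53 UMIs in Stat4fl/flCD11cCre and 0 in WT. That is at least 19.0-fold higher against a floor of 3 counts, with a log2 interval from 3.90 upward. With Itgax RNA it had 8 UMIs in Stat4fl/flCD11cCre and 1 in WT, a log2 ratio of 3.18 (0.28 to 8.65). These intervals overlap, so which side differed more cannot be read.

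In T cells the ratio of Itgad and Plcb4 was larger with Itgax RNA, though the counting intervals overlapped. Itgad had a ratio of 4.83 (2.05 to 10.26) with Itgax RNA and 2.85 (1.22 to 4.89) without it, and Plcb4 had 1.98 (1.18 to 2.80) and 1.09 (0.95 to 1.24). The Stat4fl/flCD11cCre level of Plcb4 was not higher with Itgax RNA, at 129 CPM with and 160 CPM without it. In WT these Plcb4 levels were 32.7 and 75.0 CPM. Slc25a18 had 1.37 with Itgax RNA, on 1 UMI in each library, and 4.44 without it. Cox6a2 had 0 UMIs in Stat4fl/flCD11cCre and 50 in WT with Itgax RNA, and a ratio of 0.12 without it. Most of those 50 UMIs came from the 1 WT T cell rich in Cox6a2 described above. Plcb1 in nonclassical monocytes had 86 UMIs in Stat4fl/flCD11cCre and 2 in WT in cells with Itgax RNA, a ratio of 3.21 (1.31 to 6.28), and 19 and 18 UMIs in cells without it, a ratio of 0.28 (-0.73 to 1.30). In Stat4fl/flCD11cCre the Plcb1 level was 223 CPM with and 146 CPM without Itgax RNA. In WT it was 24.1 CPM, on the 2 UMIs, and 120 CPM. The larger Plcb1 ratio in cells with Itgax RNA thus came with a low WT level as well as a higher Stat4fl/flCD11cCre level. The intervals of the 2 ratios barely missed each other. Other genes in that gate had 0 UMIs in WT on both sides of the split, so no ratio. In Stat4fl/flCD11cCre, Plcb4 stood there at 106 CPM with Itgax RNA and 116 CPM without it, and 4931431B13Rik at 80.3 and 69.3 CPM. Itgad stood at 80.3 and 23.1 CPM, on 31 and 3 UMIs. In the pooled DC, Plcb1 had ratios of 3.82 and 3.13, and Plcb4 of 0.58 and 0.64. Slc25a18 in microglia had a ratio of 2.23 (-0.38 to 5.62) with Itgax RNA and 4.28 (2.69 to 6.59) without it, on 2 and 3 WT UMIs. These intervals overlap, so which side differed more cannot be read. Its Stat4fl/flCD11cCre level was 11.9 CPM with and 9.97 CPM without Itgax RNA. Of its 101 UMIs in Stat4fl/flCD11cCre, 96 lay in cells in which no Itgax UMI was found, which are also most of the microglia.

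Over all cells, gated or not, the genes beside Itgax and Plcb4 had the larger ratio in cells with Itgax RNA, and Slc25a18 did not. Itgad had a ratio of 2.88 with and 1.14 without an Itgax UMI, 4931431B13Rik of 4.64 and 3.62, and Plcb4 of 2.69 and 1.15. Slc25a18 had 3.11 and 3.53, Cox6a2 1.14 and 0.95, Plcb1 0.29 and 0.18, and Hdhd5 0.25 and -0.09. The cells with an Itgax UMI, 1773 in Stat4fl/flCD11cCre and 2348 in WT, were deeper, with a median of 12077 and 11684 UMIs against 6322.5 and 5794.5 in the rest. They are also of another mix of types, so these values over all cells mix type and Itgax, and the part of each was not tested.

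**Figure D3:**
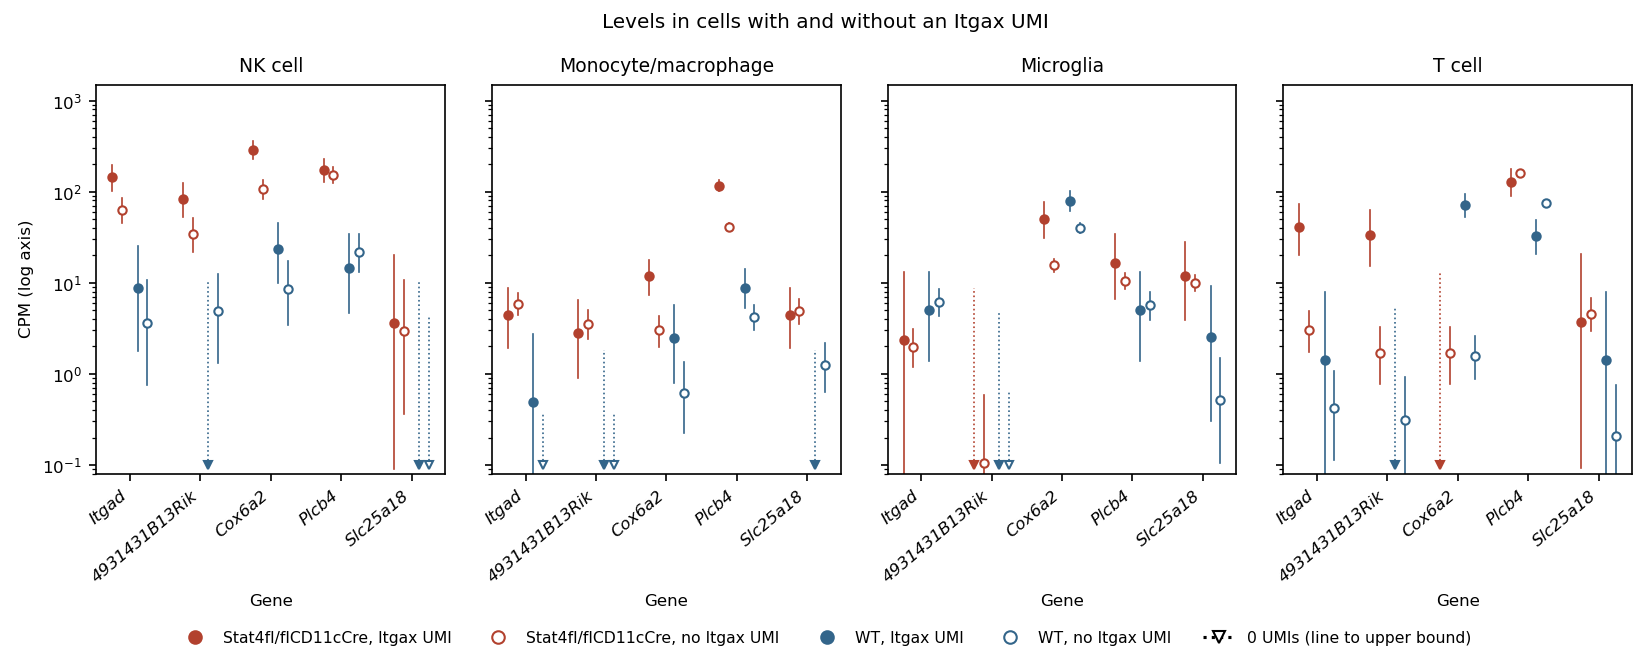
Levels of 5 genes in CPM on a log axis, in cells with an Itgax UMI (filled points) and cells without one (open points), for Stat4fl/flCD11cCre (red) left of WT (blue) in 4 cell types, with 95% counting intervals and triangles with dotted lines to the upper bound where 0 UMIs were found. In NK cells Itgad stands apart between libraries both with Itgax RNA (143 CPM in Stat4fl/flCD11cCre, 8.71 CPM in WT) and without it (62.7 and 3.64 CPM).

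The plot of the split sets the libraries side by side. The same split within 1 library asks where a gene's RNA lies. Over all Stat4fl/flCD11cCre cells, Itgad was higher in cells with Itgax RNA by a log2 of 1.43, against -0.31 in WT, and Plcb4 by 0.82, against -0.72 in WT. For 4931431B13Rik the values were 1.27 in Stat4fl/flCD11cCre and 0.25 in WT. Thinning raised the Stat4fl/flCD11cCre value of Itgad to 2.26 and of 4931431B13Rik to 2.75. Cox6a2 had 1.04 and 0.86, Plcb1 -0.13 (0.31 thinned) and -0.24, Slc25a18 -0.22 and 0.19, and Hdhd5 -0.08 and -0.42.

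Within a gate of the Stat4fl/flCD11cCre library the pattern was uneven. In NK cells Itgad was higher in cells with Itgax RNA by 1.19 (0.53 to 1.85), beside 1.26 (-1.64 to 4.16) in WT. Cox6a2 in NK cells was higher by 1.45 in both libraries, or by 0.34 in Stat4fl/flCD11cCre once thinned, 4931431B13Rik by 1.26 and Plcb4 by 0.17 in Stat4fl/flCD11cCre. In T cells Itgad was higher by 3.74, on 11 UMIs with and 16 without Itgax RNA. 4931431B13Rik was higher by 4.28, on 9 and 9 UMIs, while Plcb4 had -0.31. With 2 or more Itgax UMIs as the limit, Itgad had 1.93 (-3.42 to 4.54) and 4931431B13Rik 2.55 (-2.84 to 5.22), intervals that include 0. Plcb4 had -1.14 (-3.02 to 0.22) at that limit, and Itgad moved to 5.05 (2.50 to 7.11) once thinned. In monocytes/macrophages Plcb4 was higher by 1.51 (1.26 to 1.76) in Stat4fl/flCD11cCre and 1.07 (0.18 to 1.90) in WT, and Cox6a2 by 1.97 and 1.99. Itgad there had -0.40 in Stat4fl/flCD11cCre, and Plcb1 had -0.90 in Stat4fl/flCD11cCre and -0.94 in WT. In Stat4fl/flCD11cCre monocytes/macrophages Cox6a2 moved to 3.70 on 4 UMIs once thinned, and Plcb1 moved to -0.50 thinned and -0.45 with 2 or more Itgax UMIs as the limit. Slc25a18 in microglia had 0.25.

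Cells thinned to 2500 UMIs were also set out by their number of Itgax UMIs, which removes depth from the comparison but not cell type. Among 10924 Stat4fl/flCD11cCre cells with 0 Itgax UMIs, 496 with 1 and 118 with 2 or more, Itgad stood at 6.52, 20.2 and 78.0 CPM. In WT, with 11217, 700 and 84 cells, it stood at 2.67, 0.571 and 9.52 CPM. 4931431B13Rik had 3.77, 13.7 and 74.6 CPM in Stat4fl/flCD11cCre, against 0.285, 0.571 and 0 CPM in WT. The order by Itgax UMIs was thus steep in Stat4fl/flCD11cCre for both genes. In WT the order was not readable, on 75, 1 and 2 UMIs of Itgad and 8, 1 and 0 of 4931431B13Rik. The upper bounds at 2 or more Itgax UMIs were 34.4 and 17.6 CPM there.

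Plcb4 had 43.5, 79.8 and 180 CPM over the same steps in Stat4fl/flCD11cCre, against 18.3, 9.14 and 19.0 CPM in WT. Plcb1 had 83.4, 96.8 and 132 CPM in Stat4fl/flCD11cCre, against 81.8, 60.6 and 57.1 CPM in WT. Cox6a2 followed no such order in Stat4fl/flCD11cCre, with 80.4, 280 and 81.4 CPM, while in WT it was higher at each step, with 40.1, 89.1 and 157 CPM. Slc25a18 had 7.40, 3.23 and 16.9 CPM in Stat4fl/flCD11cCre, against 0.606, 1.14 and 0 CPM in WT. In WT the last step rests on 4 UMIs for Plcb4 and 0 for Slc25a18.

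**Figure D4:**
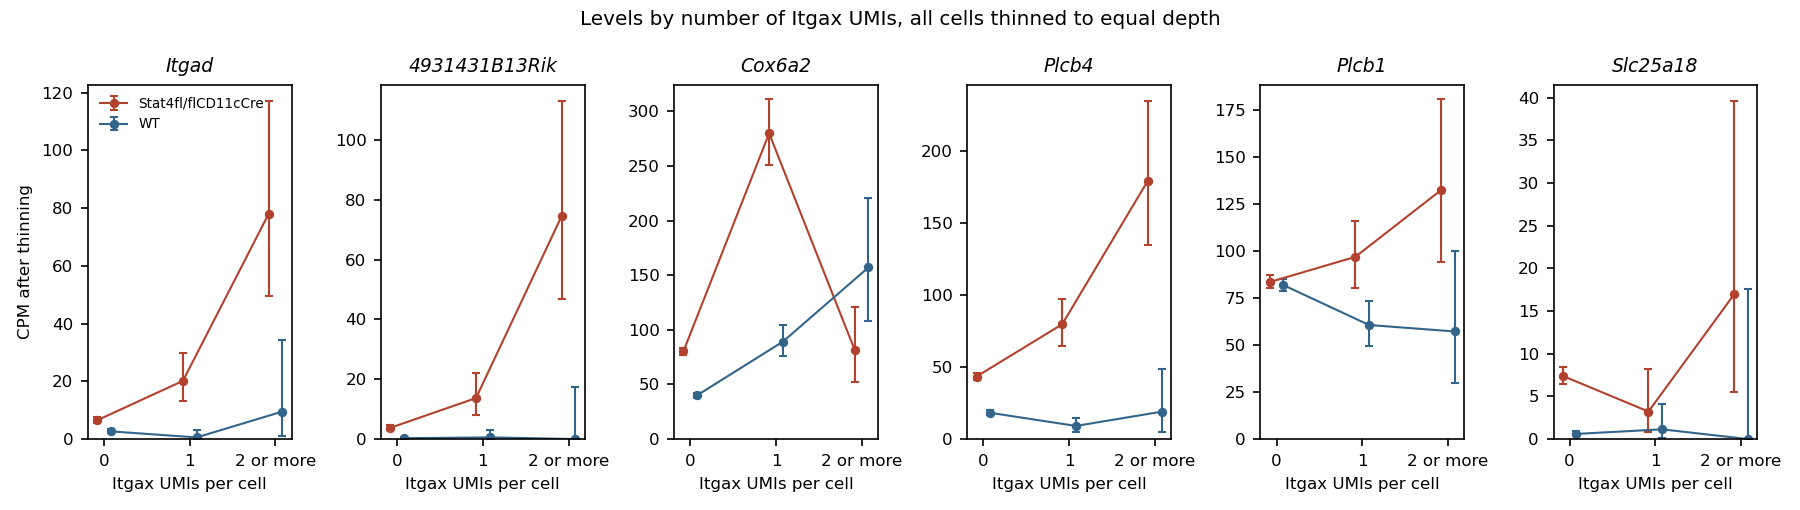
Level of each gene in CPM by the number of Itgax UMIs per cell (0, 1, or 2 or more) after thinning to 2500 UMIs, with Stat4fl/flCD11cCre before WT and 95% counting intervals. Itgad climbs over 6.52, 20.2 and 78.0 CPM in Stat4fl/flCD11cCre and lies at 2.67, 0.571 and 9.52 CPM in WT. The WT values at 1 and at 2 or more Itgax UMIs rest on 1 and 2 Itgad UMIs.

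The plot by Itgax UMIs is of all cells, so cell types with more Itgax RNA can weigh more at its right end. Their shares at each step were not counted. Whether single cells held several of the genes was read in thinned Stat4fl/flCD11cCre cells. Of 183 cells with an Itgad UMI, 15.3% also held a 4931431B13Rik UMI, against 0.78% of cells without Itgad. In NK cells this was 23.1% of 26 cells against 8.76%, and in nonclassical monocytes 6 of 12 cells against 5.56%. A Cox6a2 UMI was in 15.9% of Itgad cells and 4.36% of the others, and a Slc25a18 UMI in 2.73% and 1.77%. Itgad and 4931431B13Rik overlap on opposite strands, so counting that ignores strand would also place them in the same cells.

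Other genes at the 3 places were then measured, taking the 10 nearest annotated genes on each side. Around Itgax, 0 of 14 neighbours with 20 or more UMIs over all cells were 2-fold or more higher. Itgam (CD11b), the next beta-2 integrin gene upstream, had a ratio of 0.25 over all cells, and Gm39091 and Gm44850, which like Cox6a2 lie antisense within Itgad, had 0.31 (-0.46 to 1.08) and 0.20. Within gates some of these genes did pass 2-fold. Prss36 was lower in monocytes/macrophages, Kat8 and Pycard in neutrophils, and Bckdk in cDC1. Higher were Kat8 in choroid plexus cells, Pycard in B cells and Itgam in NK cells. Itgam had 172 UMIs in NK cells of Stat4fl/flCD11cCre and 103 in those of WT, at 181 and 88.2 CPM, a ratio of 1.04 (0.68 to 1.41), and in the pooled DC it had 115 and 62.6 CPM, a ratio of 0.88 (0.48 to 1.29). Within the pool the Itgam ratio was 0.31 (-0.10 to 0.73) in cDC2 and 2.44 (0.11 to 5.71) in cDC1, the last on 8 and 2 UMIs, beside the unequal mix of subsets given above, whose part was not tested. In the pooled DC other genes near Itgax had ratios of 0.08 for Vkorc1, -0.49 for Bckdk, -0.90 for Kat8 and 0.04 for Pycard.

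Around Plcb1 and Plcb4, 3 of 11 measured neighbours were 2-fold or more higher over all cells, Lrrn4 (1.17) and Platr3 (1.22), with 22 and 16 UMIs in Stat4fl/flCD11cCre and 10 and 7 in WT, and Gm14211 (1.34), which lies antisense within Plcb4. In the pooled DC, Crls1 had 27 UMIs in Stat4fl/flCD11cCre and 11 in WT, a ratio of 1.16 (0.10 to 2.31), and Tmx4 had a ratio of 0.35. Around Hdhd5 and Slc25a18, 1 of 18 was higher over all cells, Cecr2, which lies between them, with 364 UMIs in Stat4fl/flCD11cCre and 127 in WT, a ratio of 1.55, and 1 was lower, Gm15856 (-1.13). Cecr2, a chromatin remodelling factor gene, had 89 UMIs in B cells of Stat4fl/flCD11cCre and 3 in those of WT, at 311 and 16.9 CPM, a ratio of 4.20 (2.61 to 6.51). In the pooled DC the ratios were 0.68 for Atp6v1e1, 0.15 for Wnk1, -0.09 for Kdm5a, 0.55 for Il17ra, 0.03 for Bcl2l13 and -0.42 for Bid. Over all cells 3.22% of genes were 2-fold or more higher. Prss36, Lrrn4, Platr3, Gm14211, Cecr2, Gm15856, Gm39091 and Gm44850 were named after their values were seen.

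**Figure D5:**
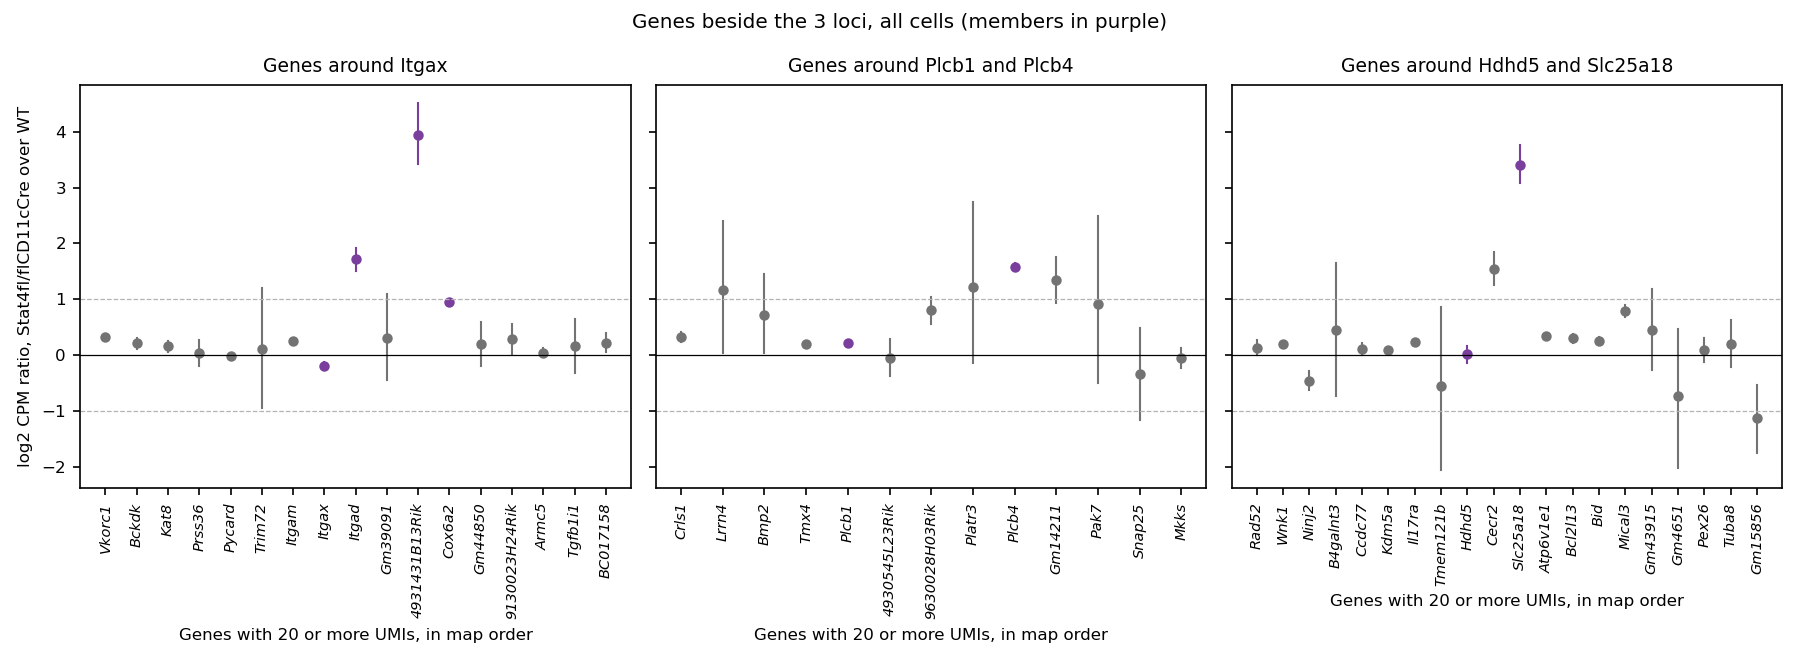
Log2 ratio of Stat4fl/flCD11cCre over WT over all cells for the members and their neighbours in gene order at the 3 places, with 95% counting intervals. At the Itgax place the members Itgad (1.71) and 4931431B13Rik (3.95) stand above their neighbours Itgam (0.25) and Gm39091 (0.31), and at the Hdhd5 place Slc25a18 (3.41) and Cecr2 (1.55) stand above Hdhd5 (0.01).

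As the plot along the gene order shows, the ratio changed between adjacent genes. Genes of the same pathways, apart from the members, mostly did not pass 2-fold. Of 11 other leukocyte integrin genes, 0 were higher and 0 lower over all cells, with a median ratio of -0.14 beside 0.05 for all genes. In NK cells 1 of 9 was higher, Itgam, and 1 lower, Itga5, a fibronectin receptor chain. In microglia 0 of 11 were higher and 2 lower, Itgal (CD11a), at 5.17 CPM in Stat4fl/flCD11cCre and 23.3 CPM in WT, and Itga4, an alpha chain of the receptor for VCAM-1, with a ratio of -1.48. Neutrophils had 2 lower, Itga5 and Itgb5, and cDC2 had 1 lower, Itgal (-1.06).

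Of 15 other genes of Gq and phospholipase C signalling, 0 were higher and 0 lower over all cells, in monocytes/macrophages, in microglia and in T cells. Plcb2 and Plcb3, the other phospholipase C beta genes, had ratios of 0.00 and -0.15 in monocytes/macrophages, where Plcb4 had 3.41. In nonclassical monocytes Itpr2, a calcium release channel of this pathway, was higher by 1.07, while neutrophils had 2 lower, Plcb2 (-1.23) and Itpr1 (-1.14). Among gates with few cells, Itgb1 (1.28) and Prkcd (1.04) were higher in plasmacytoid DC and Prkcb (-1.31) was lower in cDC1. Of 12 other cytochrome c oxidase subunit genes, 0 were past 2-fold in any gate but B cells, where Cox5a, Cox6a1 and Cox6c were higher among 11, with a median ratio of 0.76 beside 0.12 for all genes. In that gate 22.0% of all genes were higher. Cox6a1, the widespread partner of Cox6a2, stood at 250 CPM in NK cells of both libraries. Of 11 other mitochondrial carrier and hydrolase genes, 0 were past 2-fold in any gate but microglia. There Slc25a22, the other mitochondrial glutamate carrier, was lower, with a ratio of -1.07 where Slc25a18 had 3.74.

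Genes most like Itgax across cell types were found by Pearson's r of log2(CPM + 1) over 22 points, 11 gates of 30 or more cells in 2 libraries, among 11225 genes. They were Pctp (0.87), Slk (0.87), Capzb (0.85), Cd244a (0.85), an NK cell receptor gene, and Sh2d1b1 (0.84). The other members were less like it, at 0.60 for Itgad, 0.52 for 4931431B13Rik, 0.52 for Plcb1, 0.24 for Plcb4, 0.19 for Hdhd5, 0.16 for Cox6a2 and -0.40 for Slc25a18. For Plcb1 they were Ms4a8a (0.80), a marker that defined the monocyte/macrophage gate, Scarf1 (0.79), Jag1 (0.79), Gm7644 (0.79) and Dpep2 (0.78). The points share 2 libraries and the gates differ in depth, so these values only describe.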

How the data were processed

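Each deposited matrix holds whole UMI counts for every gene in every barcode. The submitters' processing notes name Cell Ranger 7.0.0 as well as mm10, STAR, bcl2fastq, Seurat and R 4.3.0, without their roles. The annotation release, the use of strand and introns, and any removal of doublets are not stated there or in the labels. The 5 antibody tags in the matrices were left out of gene totals. The libraries held 120221740 gene UMIs in Stat4fl/flCD11cCre and 122975017 in WT.

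The members, marker lists and pathway lists were chosen with earlier results of these data known. UMIs were summed per library and gate and scaled to the gate's gene UMIs (Python 3.11.15, scipy 1.17.1, pandas 2.3.3). Levels carry exact Poisson, shares exact Clopper-Pearson and ratios exact conditional binomial intervals at the 95% level, which cover counting error only. There was 1 library per genotype, so no test was run. A gene with 0 UMIs was given a floor of 3 counts in that library. Doublets were limited by the gate, and leaving out each library's top 10% by Scrublet score (scanpy 1.11.5) was an alternative. Thinning to 2500 UMIs left out 767 shallower cells (6.23%) in Stat4fl/flCD11cCre and 1297 (9.75%) in WT. The calculation of the ratio and its interval was checked on simulated data: of 100 genes simulated at 4-fold in NK cells among 7826, the interval lay above 0 for 100%, and for 89.0% at 2-fold. The simulated counts were Poisson draws, which the interval itself assumes. They did not gather UMIs in single cells as some real genes do, so how well the intervals hold in these data was not tested.

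The text names all 8 members in gates of 50 or more cells, neighbours with 20 or more UMIs in the pooled DC, Stat4, the 5 genes most like Itgax and Plcb1, and pathway genes 2-fold apart. Members in gates with fewer cells were named beside them. 1 neighbour of Itgax is not reported here. Alternatives were 2 or 4 own markers, stricter cell filters, Scrublet, scaling without mitochondrial and ribosomal genes, centring on the median gene, thinning and other minimum UMIs. Those added after seeing the data were a gate with double the markers of any other list, removal of cells with a plasmacytoid marker, and removal of the top cell.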

Additional observations from a re-analysis of the deposited data

Results flagged for a closer look

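Itgax differed between libraries in opposite directions in nonclassical monocytes (a log2 ratio of Stat4fl/flCD11cCre over WT of 1.84) and microglia (-1.88), a gap of 3.72. Itgad did so in monocytes/macrophages (6.05) and microglia (-1.60), a gap of 7.65. Cox6a2 did so in NK cells (3.64) and microglia (-1.39), a gap of 5.03. These gaps between cell types were not tested, since each genotype has 1 library.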

How the results depend on the processing

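No paired analysis was possible because each genotype has 1 library and no replicates share a number. Of the alternative values for 67 log2 ratios of the members, 581 stayed within the counting interval and 26 moved beyond it. Among ratios whose interval left out 0, 1 turned its sign: thinned to 2500 UMIs, Plcb4 in the pooled DC was -0.69, on 5 UMIs in Stat4fl/flCD11cCre and 9 in WT. Among ratios whose interval included 0, 38 alternative values turned sign, 4 of them with an interval that left out 0. With double markers these were Itgad in plasmacytoid DC (0.74) and Plcb1 in microglia (-0.43) and T cells (-1.41), and with 2 own markers Plcb1 in neutrophils (-1.75). For 15 ratios with 0 UMIs in WT the lower end of the counting interval, a smaller value than the fold against 3 counts, was recomputed 148 times and crossed a ratio of 1 in 9. Thinning also turned the excess in cells with Itgax RNA for Plcb1 over all cells to 0.31 and for Plcb4 in the pooled DC to -0.25, and moved it over all cells to 2.26 for Itgad, 2.75 for 4931431B13Rik, 1.59 for Cox6a2, 1.19 for Plcb4 and 0.28 for Hdhd5. With 2 or more Itgax UMIs as the limit, Cox6a2 had 0.67. Itgax moved to 2.67 in cDC1 and -1.15 in T cells when thinned, to 1.19 in cDC2 with 4 own markers, and to 2.89 in neutrophils with the stricter cell filter; the cause was not tested.

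The number of members 2-fold or more higher became 2 in the pooled DC with 2 or 4 own markers, with double markers and without cells holding a plasmacytoid marker. Thinned, which leaves fewer genes at 20 UMIs, it was 2 in microglia, 1 in monocytes/macrophages, 0 in cDC2, 1 in T cells and 0 in neutrophils. Double markers gave 3 in microglia. Without cells holding a plasmacytoid marker it was 1 in cDC2 and 1 in neutrophils, and 2 or 4 own markers also gave 1 in neutrophils. The share of all genes past the same limits was not computed under these settings, so nothing is read from these counts.

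The share of all genes 2-fold or more higher moved with the minimum. With 100 or more UMIs, and with 1 or more UMI in each library, it was 0.508% and 6.4% in the pooled DC, 0.958% and 4.47% in microglia, 0.266% and 4.67% in monocytes/macrophages, 0.545% and 9.18% in nonclassical monocytes, and 0.431% and 7.62% in cDC2. It was 0.205% and 4.86% in T cells, 0.249% and 6.47% in NK cells, 0.166% and 4.69% in neutrophils, 0.0% and 9.73% in choroid plexus cells, and 1.98% and 6.51% over all cells. Few UMIs limit most members in the smaller gates, and how small a difference could be detected there was not tested.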
